A study of Mus musculus with 4 samples.

Results

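The genes described here are the sarcomeric myosin heavy chain genes of mouse gastrocnemius and a long non-coding RNA gene that lies among them, followed through lists of H3K4me3 peaks. The members were taken by symbol from the GENCODE annotation of mm10 and numbered 10 of 53843 annotated genes on the autosomes and X. Of these, 9 were protein-coding, of 21755 protein-coding genes in all. Chromosome 11 held 7 members (Myh3, 2310065F04Rik, Myh2, Myh1, Myh4, Myh8 and Myh13, in that order), chromosome 14 held 2 (Myh6 and Myh7) and chromosome 2 held Myh7b. For each member, peaks within 1000 bp of any of its transcription start sites (TSSs) and peaks over its gene body were read from every list. A gene with a peak in that window is called marked.

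H3K4me3, trimethylation of lysine 4 of histone H3, is a histone modification found at promoters and was mapped by chromatin immunoprecipitation sequencing (ChIP-seq). The tissue was gastrocnemius, the large calf muscle, of adult female B6CASTF1/J mice aged 2 months, whose parents were C57BL/6J and CAST/EiJ (an F1 cross). All 4 libraries were of this one tissue, strain, sex and age, and formed 2 pools, E for biological replicate 1 and F for biological replicate 2. A pool combined 2 biosamples and was sequenced as 2 technical libraries. The deposited lists were of pool E, of pool F, of both pools together (the pooled list) and of replicated peaks of both pools (the replicated list). No list held a value per library or per parental allele, and no second condition existed, so the values below are descriptions with no test.

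Myosin heavy chains are the motor proteins of the thick filament, and the isoform that a muscle fibre makes sets how fast it contracts. In adult limb muscle of the mouse, Myh7 marks slow fibres (type I), and Myh2, Myh1 and Myh4 encode the chains of fast fibres of types IIa, IIx and IIb. Myh3 and Myh8 are the embryonic and the perinatal chain, Myh13 is known from extraocular muscle, Myh6 and Myh7 are the alpha and beta chains of the heart, and Myh7b is a slow type chain. Since whole muscle was used, fewer nuclei with the mark and less of the mark per nucleus cannot be told apart.

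The fast gene promoters shared short runs of sequence with that of perinatal Myh8. The 200 bases before the most upstream annotated start of Myh2 (chr11:67170827-67171026), Myh1 (chr11:67199852-67200051), Myh4 (chr11:67237612-67237811) and Myh8 (chr11:67276924-67277123) are shown because they carry the longest run common to them. They come from RefSeq, build GRCm38.p6 (the same as mm10), on the plus strand, 5′ to 3′, and capitals mark that run.
Myh2: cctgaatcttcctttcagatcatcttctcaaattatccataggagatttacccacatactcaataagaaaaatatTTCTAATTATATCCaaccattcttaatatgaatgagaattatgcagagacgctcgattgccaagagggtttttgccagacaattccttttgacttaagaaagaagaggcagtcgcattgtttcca
Myh1: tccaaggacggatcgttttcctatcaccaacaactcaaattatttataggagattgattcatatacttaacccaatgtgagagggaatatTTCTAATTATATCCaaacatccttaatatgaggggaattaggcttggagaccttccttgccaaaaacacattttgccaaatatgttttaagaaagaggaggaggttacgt
Myh4: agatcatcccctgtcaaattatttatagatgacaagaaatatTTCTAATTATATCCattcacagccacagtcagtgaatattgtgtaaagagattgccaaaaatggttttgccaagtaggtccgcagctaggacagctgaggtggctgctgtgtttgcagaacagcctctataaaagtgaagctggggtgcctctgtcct
Myh8: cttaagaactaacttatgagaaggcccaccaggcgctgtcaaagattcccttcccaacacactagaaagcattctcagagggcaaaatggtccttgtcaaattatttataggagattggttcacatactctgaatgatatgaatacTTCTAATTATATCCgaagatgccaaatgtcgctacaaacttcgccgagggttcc
The run TTCTAATTATATCC, of 14 bases, was found on either strand in 4 of 32619 promoter windows of 300 bp (250 bases before to 50 after a start), and those 4 were the windows of these genes. It was picked after the sequences had been seen, and a match is a description and not a binding site. It began 125 bases before that start in Myh2, 110 in Myh1, 158 in Myh4 and 54 in Myh8. Myh1 and Myh8 had the longest run of any pair, 22 bases. Pairs with a gene outside these 4 had at most 11 bases in a row in common. For Myh13 the RefSeq window belonged to an internal GENCODE start. In global alignments of the 300 bp windows, Myh1 and Myh4 were identical at 65.3% of positions and Myh2 and Myh1 at 65.0%, with a median of 58.3% over the 45 pairs of members. Over the whole window Myh8 was closer to that median, at 60.0% with Myh4, 59.7% with Myh2 and 58.3% with Myh1. Of the 4 genes with the run, Myh2, Myh1 and Myh4 were marked in the peak lists and Myh8 was not.

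Known muscle motifs were unevenly spread over these windows. Searched on both strands, the E-box CAGCTG, the core of sites bound by myogenic factors, was found in the window of Myh4 alone among the 10 members, beginning 67 bases before the RefSeq start (16.4% of all promoter windows held it). A MEF2 motif was found in the windows of Myh1, Myh4 and Myh8 (3.11% of all windows). A CArG box was found in Myh4 and Myh13 (1.64%). MCAT, CATTCC, was found in Myh1, Myh4, 2310065F04Rik, Myh7 and Myh6 (14.6%). The MEF3 letters TCAGGTT were found in none of the member windows, against 4.10% of all windows. TATAAA was found in Myh2, Myh1, Myh4, 2310065F04Rik, Myh6, Myh3 and Myh8 (13.7%), and a match overlapped the MEF2 motif in Myh1, Myh4 and Myh8. The CCAAT box was found in Myh1, Myh7 and Myh8 (37.6%). The bases before the slow gene Myh7 (chr14:54994627-54994799, minus strand) held one CCAAT box, shown in capitals.
Myh7: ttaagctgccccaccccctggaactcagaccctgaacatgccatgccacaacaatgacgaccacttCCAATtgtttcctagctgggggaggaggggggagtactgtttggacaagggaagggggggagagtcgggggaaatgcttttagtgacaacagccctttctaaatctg

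Of the 10 members, 6 were marked in the replicated list: Myh2, Myh1, Myh4, 2310065F04Rik, Myh7 and Myh7b. The same 6 were marked in the pooled list, in pool E and in pool F, and the same 6 had a peak over the gene body in each list. The marked members were 4 of 7 on chromosome 11, 1 of 2 on chromosome 14 and Myh7b. Myh3, Myh8, Myh13 and Myh6 had no peak near a TSS or over the gene body in any list. Among the protein-coding members 5 of 9 were marked, where 69.3% of all protein-coding genes were marked in the replicated list, 69.5% in the pooled list, 69.3% in pool E and 68.9% in pool F. Peaks over the gene body were found for the same 5 of 9, against 71.5% of protein-coding genes. All members except Myh7b were of the low CpG class, in which 25.2% of protein-coding genes were marked. Counting Myh2, Myh1, Myh4, Myh7, Myh6, Myh3, Myh8 and Myh13 of that class, 4 of 8 were marked. Myh7b fell in the intermediate class, where 93.9% were marked, only through an internal TSS, where CpG dinucleotides were present at 0.498 of the number that the base composition predicts. At its first TSS that ratio was 0.149. The long non-coding RNA gene stood in a class, lincRNA, in which 22.4% of 5305 genes were marked.

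**Figure D1:**
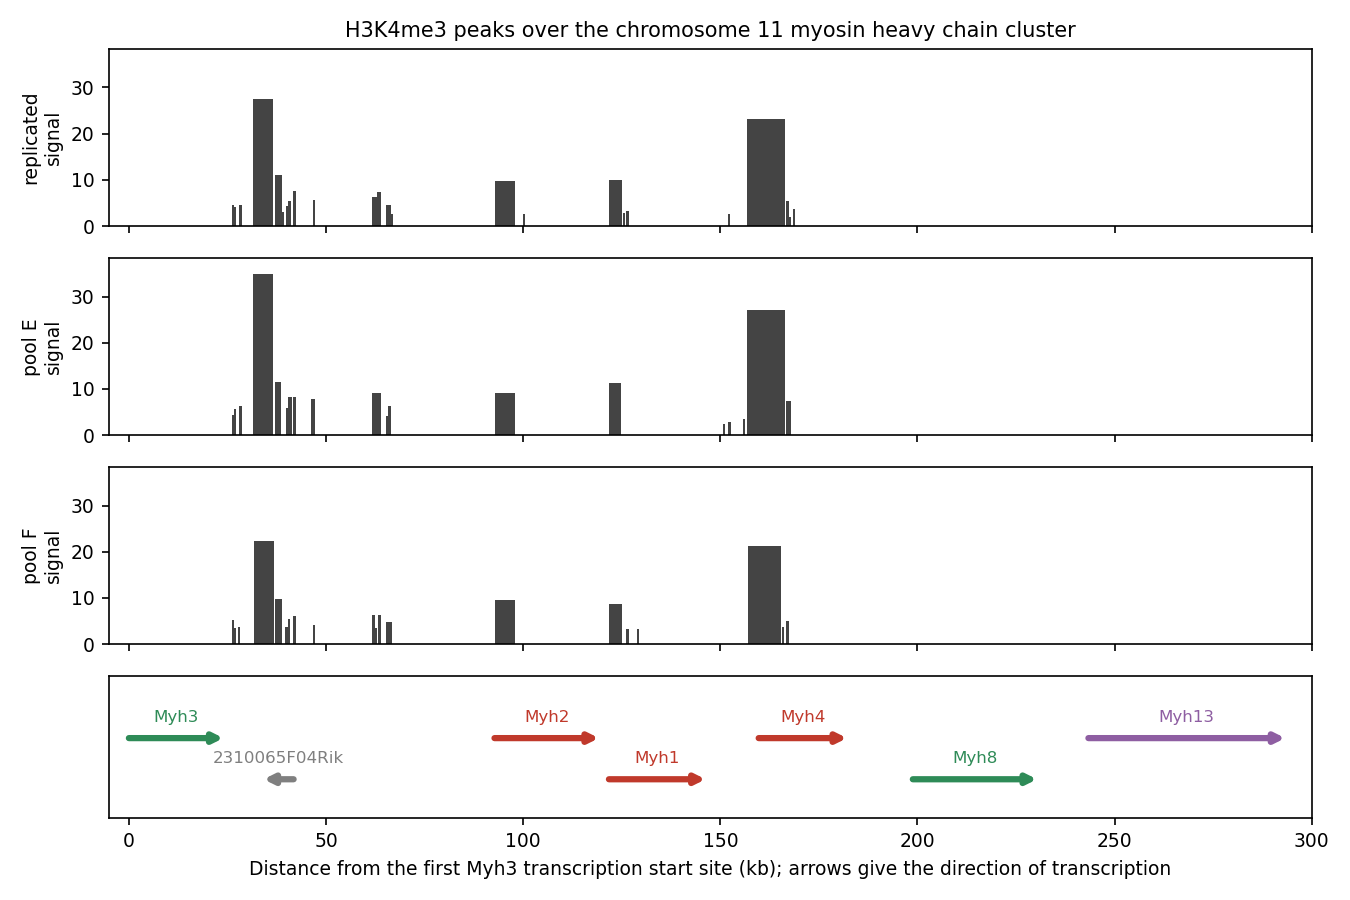
Peaks of the replicated, pool E and pool F lists over the chromosome 11 cluster: each bar is a peak, its width the peak's length and its height the authors' signal value, plotted against the distance in kb from the first Myh3 start, with arrows for the genes. Peaks lie from the stretch between Myh3 and 2310065F04Rik to the front part of Myh4, and none lies over Myh3, Myh8 or Myh13.

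Signal values below are the authors' own value per peak, read within a list and not across lists. Over all marked protein-coding genes of the replicated list, the median of the highest signal value near a TSS was 45.2 (interquartile range 31.7 to 54.7). The median was 18.5 over the 2106 marked genes of low CpG class. Joining peaks at most 1000 bp apart into domains, the widest domain near a TSS had a median width of 2400 bp over marked genes (1736 to 3535 bp) and of 1732 bp in the low CpG class. In pool E the medians over marked genes were 48.9 and 2452 bp, and in pool F 42.9 and 2314 bp.

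Among the fast genes, Myh4, the chain of type IIb fibres (chr11:67238029-67260446, plus strand), carried the strongest and widest mark. Its highest signal value was 23.2 in the replicated list, 27.0 in pool E and 21.2 in pool F. In each list this was the highest value of any member near a TSS, yet in the replicated list 16.6% of marked genes, and 58.1% of those of low CpG class, had a value at or below it. The domain measured 12030 bp in the replicated list, 12034 bp in pool E and, in pool F, 10439 bp. Of marked protein-coding genes, 162 had a wider domain in the replicated list, 183 in pool E and 189 in pool F. Thus 98.9% of marked genes had a domain no wider than that of Myh4 in the replicated list, whereas most had a higher signal. In the replicated list the domain ran from 2973 bp before the first annotated Myh4 TSS to 9056 bp after it, and its summit lay 604 bp after that TSS. Peaks covered 36.2% of the Myh4 gene body, against a median of 4.60% in the 5839 protein-coding genes of 20000 to 60000 bp.

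The part of that domain before Myh4 also held other starts. RefSeq placed the Myh4 start at 67237812, within the peak in every list. Myhas, an antisense RNA gene on the minus strand that runs from the front of Myh4 into Myh1, had an annotated start at 67237573, and its window held the same Myh4 domain. The lists have no strand, so the mark at this bidirectional stretch cannot be divided between Myh4 and Myhas.

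Myh2, the type IIa chain (chr11:67171027-67197517, plus strand), had a lower and narrower mark than Myh4. Its signal value was 9.83 in the replicated list, 9.01 in pool E and 9.61 in pool F. The peak was 5206 bp, 5260 bp and 5136 bp wide in the same order. Both pools thus gave nearly the same width. Among marked genes of the replicated list, 7.43% had a signal at or below that of Myh2, and 88.7% a domain no wider. Peaks covered 20.4% of its gene body.

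Myh1, the type IIx chain (chr11:67200052-67224575, plus strand), was close to Myh2 in height. Its signal value was 9.98 in the replicated list, 11.2 in pool E and 8.59 in pool F. It was thus above Myh2 in the replicated list and in pool E and below it in pool F. Its main peak measured 3380 bp, 2979 bp and 3189 bp. In the replicated list 2 small peaks behind it lengthened the domain to 4961 bp, whereas in each pool the domain was the main peak alone. With or without that joining, the Myh1 domain was narrower than that of Myh2 in all 3 lists. Coverage of the gene body was 18.1% in the replicated list, 12.1% in pool E and 16.7% in pool F.

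The marks of Myh2 and Myh1 began at the start site and ran into the gene. In the replicated list the Myh2 peak began 50 bp after the first TSS, in pool E 2 bp and in pool F 76 bp after it. The Myh1 peak began 29, 30 and 27 bp after the first TSS in the same lists. Both genes have further annotated starts inside the peak. No base of the 2534 bp between Myh2 and Myh1 was covered in any list. The RefSeq starts of Myh1, at 67200102 and 67200109, lay within its peak in every list, and that of Myh2 was its first TSS. As background, of the 1908 marked protein-coding genes with a single TSS, 7.08% had a domain that began downstream of it, and 20.6% of the 462 of low CpG class. Myh2 has 3 TSSs and Myh1 has 4, and their distances are from the first, so these shares are not a like comparison. Where a domain covered a TSS (14538 genes), it reached a median of 720 bp upstream and 1532 bp downstream. The Myh2 peak had 1691 bp in exons and 3515 bp in introns. The antisense gene 9430073C21Rik, which starts between Myh2 and Myh1 on the minus strand, was marked only through this Myh1 peak, whose edge was 847 bp from its start.

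**Figure D2:**
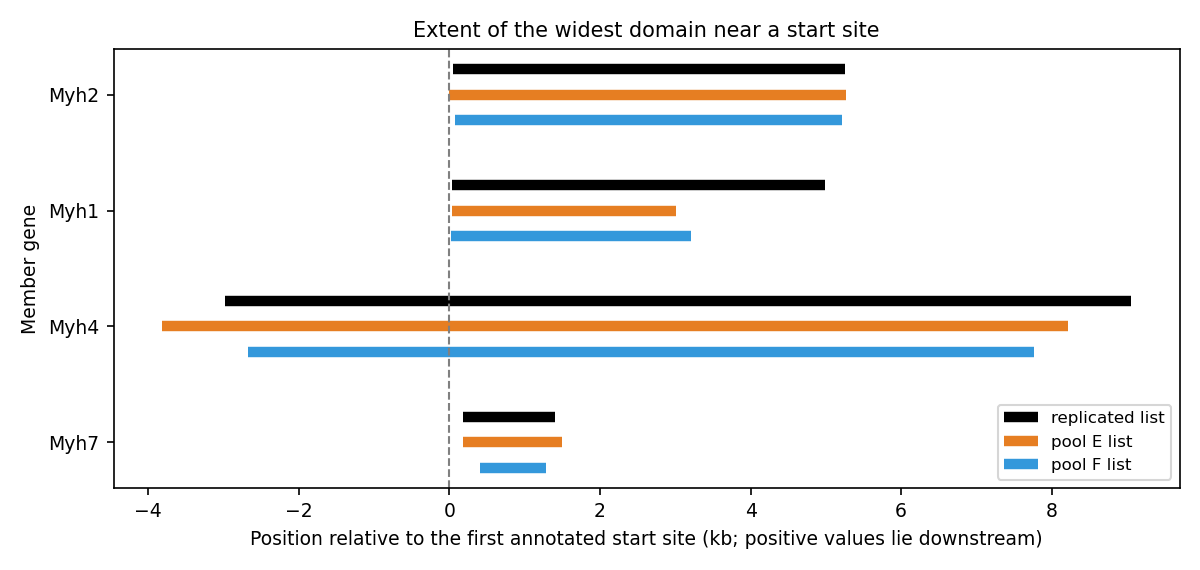
Extent of the widest domain near a TSS for Myh2, Myh1, Myh4 and Myh7 in kb from the first annotated start, with positive values downstream, for the replicated, pool E and pool F lists. The domains of Myh2, Myh1 and Myh7 lie downstream of that start, and the Myh4 domain runs from 2973 bp before it to 9056 bp after it in the replicated list.

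By signal value, the strongest peak of the whole chromosome 11 cluster lay outside any TSS window, at the 3′ end of 2310065F04Rik. This gene (chr11:67112461-67120080, minus strand) is known as linc-MYH, a long intergenic non-coding RNA of fast fibres, and lies between Myh3 and Myh2. The peak (chr11:67109878-67114978 in the replicated list) was 5101 bp long, with 1982 bp in exons of the RNA, 536 bp in an intron and 2583 bp beyond its 3′ end. Its signal value was 27.6 in the replicated list, 34.8 in pool E and 22.4 in pool F, in each list above that of Myh4. By −log10 q-value the order was the reverse. The Myh4 peak had 163 against 136 in the replicated list, 201 against 185 in pool E and 143 against 105 in pool F. The nearest edge of the 2310065F04Rik peak was 1863 bp from the nearest annotated start of the RNA, and its summit was 58311 bp from the first Myh2 TSS. The 200 bases around the summit (chr11:67112617-67112816, plus strand) are shown because this peak lay over 1000 bp from every member start, with the summit base in capitals. None of the 7 motifs was found in them.
Summit of the strongest peak: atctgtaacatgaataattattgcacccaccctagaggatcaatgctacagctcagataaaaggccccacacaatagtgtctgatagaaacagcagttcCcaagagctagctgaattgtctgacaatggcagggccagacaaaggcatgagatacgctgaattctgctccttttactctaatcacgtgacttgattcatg

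At its own starts 2310065F04Rik was marked more weakly. The peak over the internal start had a signal value of 11 in the replicated list, 11.4 in pool E and 9.78 in pool F. The peak over the first start, at 67120080, had 7.50, 8.24 and 6.0. Both pools gave the same order, with the 3′ end highest and the first start lowest of these 3 peaks. Together 6 peaks covered 77.9% of the 7620 bp gene in the replicated list, and coverage was 72.9% in pool E and 75.0% in pool F. Joined, they made a domain of 10893 bp in the replicated list and 10752 bp in pool F. In pool E the domain was 7131 bp, since a gap there was wider than 1000 bp. The longest peak of the domain in each list was the one at the 3′ end, which was 5101 bp long in the replicated list and itself lay outside the window. The widest single peak within 1000 bp of a start measured 1786 bp in the replicated list.

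Between 2310065F04Rik and Myh2, a stretch of 50946 bp, 6 peaks covered 9.56% in the replicated list, counting the part of the peak at the first start of 2310065F04Rik that lies outside that gene. Of the other peaks, the highest (chr11:67141304-67142189) had a signal value of 7.45 and a summit 29069 bp before the first Myh2 TSS. No member TSS lay within 1000 bp of it. RefSeq, looked up after the peaks had been seen, placed the start of a long non-coding RNA model, Gm31285, on the minus strand at 67143944. That position was covered by a peak of signal 4.61 in the replicated list and 4.86 in pool F, and in pool E the nearest peak was 40 bp away with 6.33. Between Myh3 and 2310065F04Rik, 4 peaks covered 42.9%, of which most was the 3′ part of the strongest peak. Between Myh1 and Myh4, 26.8% was covered.

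The cluster as a whole (chr11:67078300-67371586, 293287 bp) held 24 peaks in the replicated list, 19 in pool E and 20 in pool F, which covered 12.5%, 12.3% and 11.1%. Of the 24, 16 were overlapped by a peak of both pools, 4 by one pool and 4 by neither, and 1 had a q-value above 0.05. The same overlap was not counted over all peaks of the replicated list, so these counts have no background share. The 4 without a peak in either pool were small, with signal values of 2.60 to 3.65, and lay one each in 2310065F04Rik, Myh2, Myh1 and Myh4. A stretch of 124501 bp without any peak closed the cluster (chr11:67247086-67371586). It took in the rear part of Myh4, all of Myh8 and all of Myh13, and its length was 125338 bp in pool E and in pool F 125794 bp.

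The developmental and extraocular genes lay outside the marked stretch on both sides. Myh3, the embryonic chain (chr11:67078300-67102291), had its nearest peak 24566 bp from its TSS, the promoter peak of the neighbouring gene Sco1, with a signal of 54.9. Myh8, the perinatal chain (chr11:67277124-67308634), had its nearest peak 30039 bp away, a small peak of signal 3.65 inside Myh4. Myh13 (chr11:67321658-67371586) had its nearest peak 66072 bp from any of its 4 TSSs. The nearest peaks of pool E lay 24563, 30876 and 66048 bp away, and those of pool F 24566, 31332 and 66103 bp. No peak in a list does not show that the mark was absent, since read depth is unknown.

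**Figure D3:**
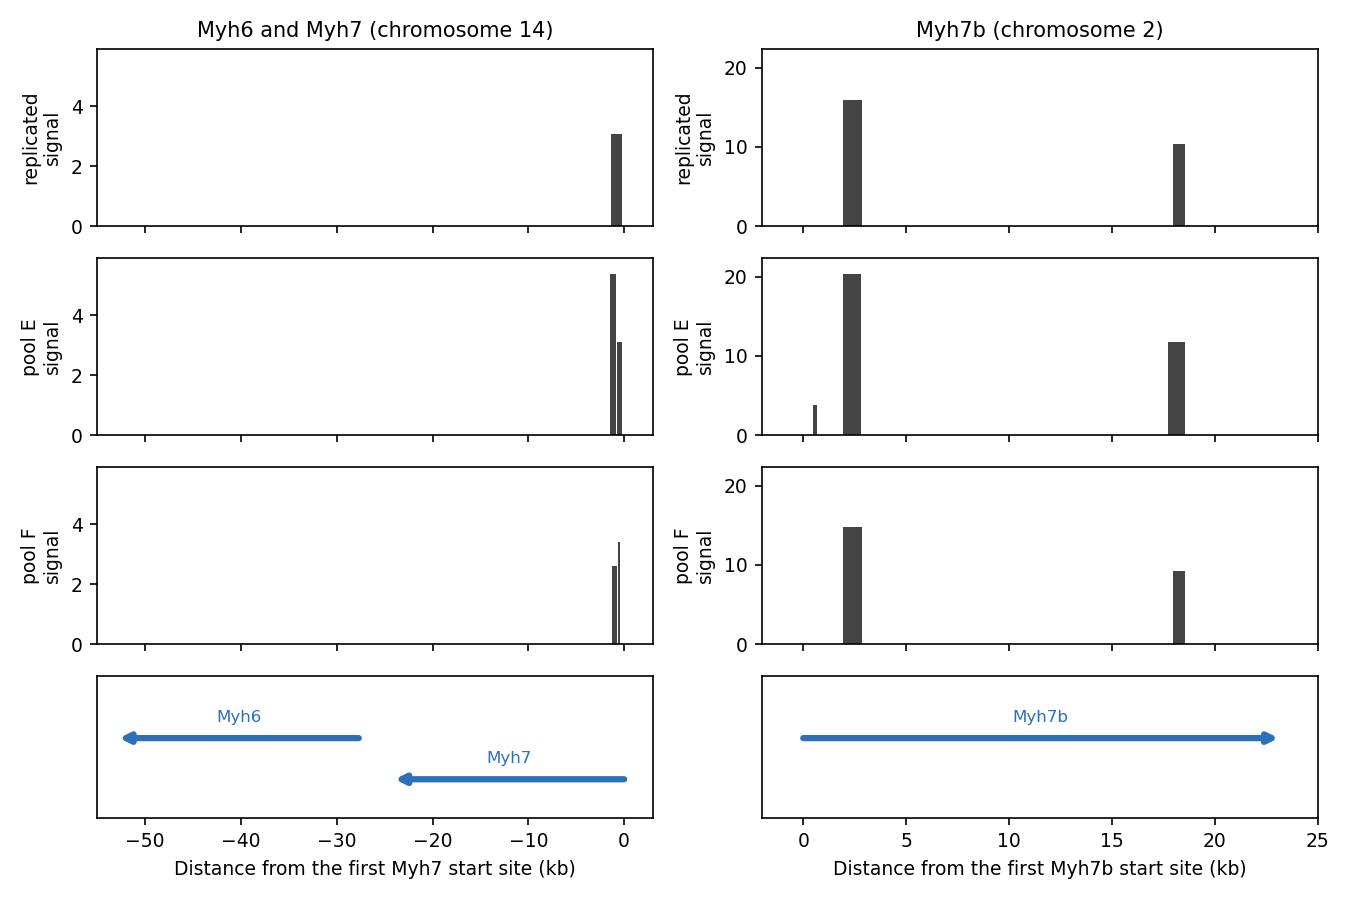
Peaks of the replicated, pool E and pool F lists over Myh6 and Myh7 (left) and Myh7b (right): bars give each peak's extent and signal value against the distance in kb from the first Myh7 or Myh7b start, with arrows for the genes. The front of Myh7 has weak peaks, with signal values of at most 5.36, Myh6 has none, and the Myh7b peaks lie inside the gene.

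Of the slow and cardiac genes, Myh7 was weakly marked and Myh6 was not. Myh7, the slow and beta cardiac chain (chr14:54970684-54994626, minus strand), had a highest signal value of 3.06 in the replicated list, 5.36 in pool E and 3.41 in pool F. Only 0.471%, 2.30% and 0.514% of marked genes in those lists had a value at or below it. The replicated peak (chr14:54993218-54994450) was 1233 bp wide, began 176 bp after the first TSS and had a −log10 q-value of 3.47. In pool E the highest −log10 q-value was 9.84 and in pool F 4.61. Myh7 had the lowest signal value of the 6 marked members in every list. It lost the mark when a −log10 q-value of at least 5 was required of the replicated list.

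Myh6, the alpha cardiac chain (chr14:54941921-54966927, minus strand), lies downstream of Myh7 on the same strand. Its first TSS was 26291 bp from the nearest peak, the one of Myh7, and its closest internal start was 7558 bp from a peak of signal 3.65 at the neighbouring gene Cmtm5. Mhrt, an antisense RNA gene that starts between Myh6 and Myh7, had no peak within 1000 bp in any list. On the far side of Myh7, the neighbouring gene Ngdn was marked with a signal of 41.7.

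Myh7b (chr2:155611212-155634307, plus strand) counted as marked only through the start of a non-coding transcript deep in the gene. That start, at 155629060, had a peak 97 bp away in the replicated list with a signal of 10.3, and the values were 11.8 in pool E and 9.19 in pool F. A stronger peak (chr2:155613160-155614048, 889 bp) lay in the front of the gene, 1948 bp after the first TSS and so outside the window. Its signal value was 15.9 in the replicated list, 20.3 in pool E and 14.8 in pool F. At the first TSS itself pool E listed a weak peak of signal 3.86 at 461 bp, and the replicated and pool F lists had none within 1000 bp. With GENCODE basic transcripts, protein-coding transcripts or RefSeq starts in place of all GENCODE transcripts, Myh7b was unmarked in the replicated list. With a window of 2500 bp its value became that of the peak in the front of the gene.

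Each of the slow and cardiac genes hosts a microRNA in an intron, and the mature sequences (RefSeq, GRCm38.p6) are shown with the seed, bases 2 to 8, in capitals, since marked Myh7 and unmarked Myh6 host microRNAs of the same seed.
miR-208a-3p, in Myh6: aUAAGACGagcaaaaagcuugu
miR-208b-3p, in Myh7: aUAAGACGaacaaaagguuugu
miR-499-5p, in Myh7b: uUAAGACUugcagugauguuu
The seed was UAAGACG in both genes of the chromosome 14 pair and UAAGACU in Myh7b. None of the microRNA genes Mir208a, Mir208b and Mir499 had a peak within 1000 bp of its own annotated start in any list.

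Set side by side in the replicated list, the highest signal values near a TSS ran from Myh4 (23.2) through 2310065F04Rik (11), Myh7b (10.3), Myh1 (9.98) and Myh2 (9.83) to Myh7 (3.06). Myh4 was first and Myh7 last in each pool as well. The order of the members between them was not fixed: in pool E it was Myh7b, 2310065F04Rik, Myh1 and Myh2, and in pool F 2310065F04Rik, Myh2, Myh7b and Myh1. These neighbours were therefore not separated beyond the difference between pools. By domain width Myh4 led in the replicated list and in pool E, with 2310065F04Rik next, and 2310065F04Rik (10752 bp) led Myh4 (10439 bp) in pool F. Myh7 (1233 bp) and Myh7b (624 bp) were the narrowest in the replicated list.

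**Figure D4:**
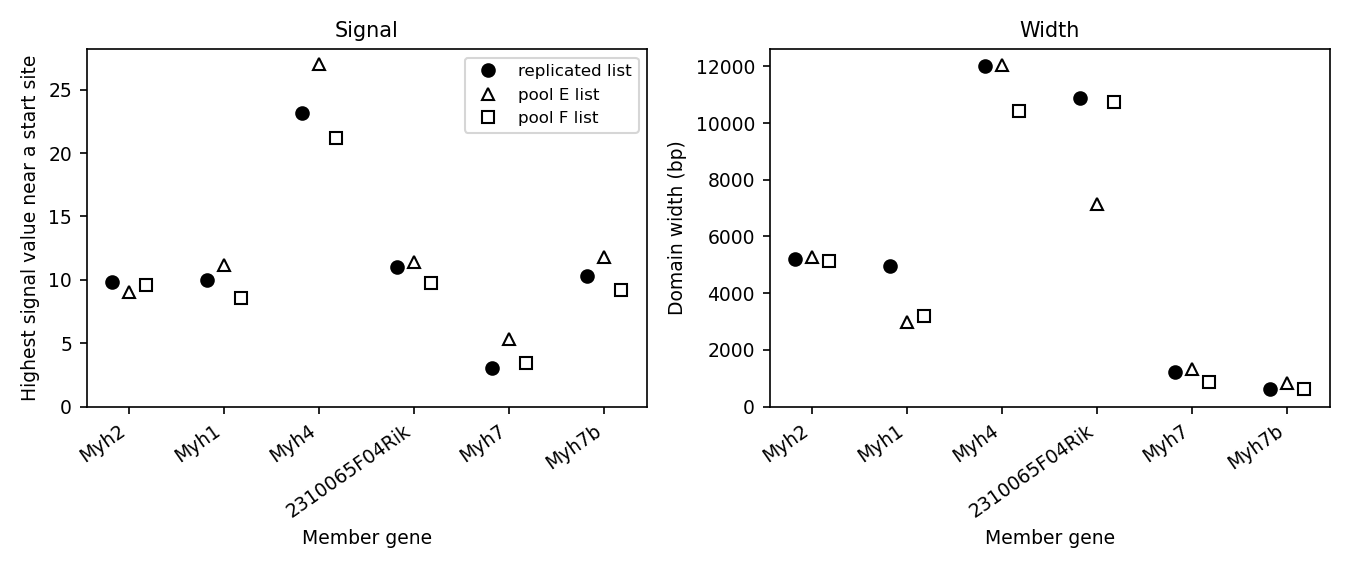
Highest signal value near a TSS (left) and domain width in bp (right) of the 6 marked members in the replicated list (filled circles), pool E (triangles) and pool F (squares). Myh4 has the highest signal value in each list, and the 2310065F04Rik domain is shorter in pool E (7131 bp) than in the other lists.

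All 6 marked members had signal values under the median of marked genes, and 4 had domains wider than the median. In the replicated list Myh4, 2310065F04Rik, Myh2 and Myh1 lay above 2400 bp, with width percentiles of 98.9, 98.5, 88.7 and 87.4 among marked protein-coding genes. In the same order the percentiles were 98.8, 94.5, 88.0 and 64.0 in pool E, and 98.7, 98.9, 90.1 and 72.0 in pool F. The width of 2310065F04Rik rested on joining, without which it was 1786 bp. The 6 skeletal muscle fibre markers had higher signal values, from 43.0 to 58.8. The markers of low CpG class among them are named here, chosen after their values were seen. Ckm, the muscle creatine kinase, had a signal of 53.1 over 13119 bp (8791 bp in the pooled list and 8736 bp in pool F), Actn3, the fast fibre alpha-actinin, 57.7 over 9663 bp, and Acta1, skeletal actin, 43.0 over 8235 bp. The fast myosin genes are of low CpG class too.

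**Figure D5:**
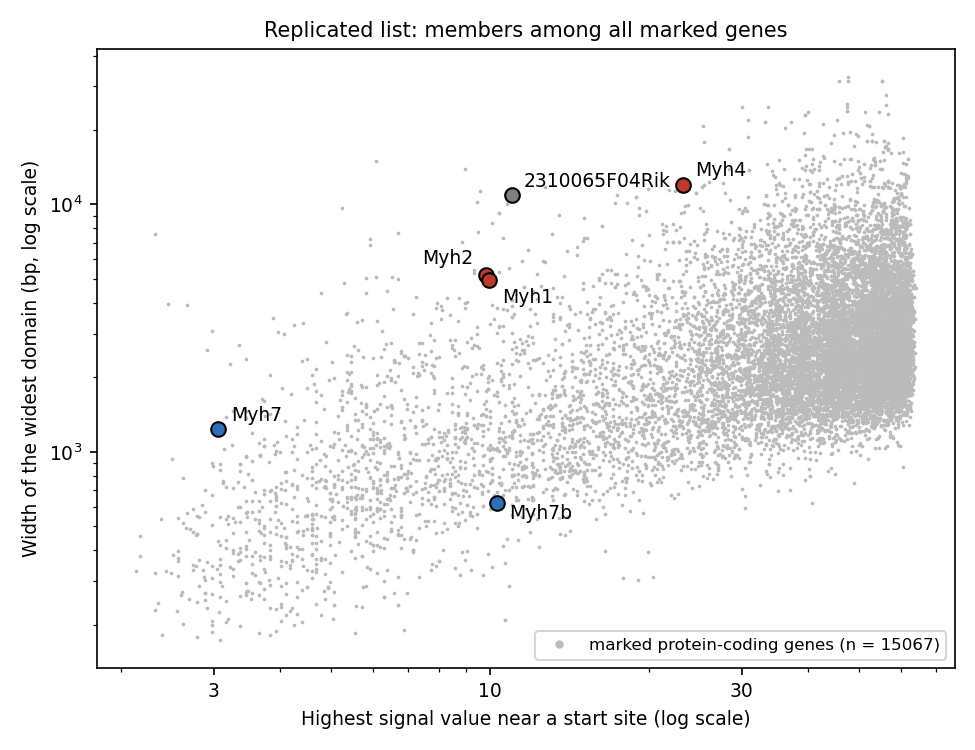
Highest signal value near a TSS against width of the widest domain (bp), both on log axes, for all 15067 marked protein-coding genes of the replicated list (grey) and the 6 marked members. Myh4, Myh2, Myh1 and 2310065F04Rik lie left of and above most genes, at signal values of 9.83 to 23.2 with widths of 4961 to 12030 bp. For 2310065F04Rik the width takes in the stronger peak at its 3′ end, which lay outside the window and is not in its signal value.

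The tissue label was checked with marker genes, beside 69.3% of all protein-coding genes marked and 25.2% of those of low CpG class. Of the skeletal muscle fibre markers 6 of 6 were marked, and of the hindlimb markers Pitx1 and Tbx4 both. Of the 6 fibre markers 3 were of low CpG class. Pitx1 and Tbx4 were both of the intermediate class, in which 93.9% of genes were marked, so their marks say little about the label. Of the heart muscle markers 1 of 6 was marked, Myl4 (signal 55.6), an atrial and embryonic light chain, and Nppa, Nppb, Myl7, Nkx2-5 and Sln were not. All of these unmarked genes except Nkx2-5 were of low CpG class. The 4 smooth muscle markers were marked with a median signal of 7.71. Whether these counts differ from the shares over all genes was not tested. That other cell types of the muscle contribute to these lists was not tested.

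Genes that act on myosin chains or on fibre type were read in the same way, beside 69.3% of all protein-coding genes marked and a median signal of 45.2 over those. Of the other class II myosin heavy chain genes 4 of 5 were marked: the non-muscle chains Myh9 (45.9), Myh10 (57.5) and Myh14 (35.2), and the smooth muscle chain Myh11 (11 over 4109 bp), whose height was close to those of Myh1 and Myh2. Myh15 was unmarked. Of the genes for myosin folding, assembly and turnover 7 of 7 were marked, with a median signal of 43.3. The highest values were those of Hsp90aa1 (62.7), a chaperone that folds myosin, Trim63 (50.1), the ubiquitin ligase MuRF1, Unc45a (46.9), a myosin chaperone, and Trim54 (43.3). Of the regulators of fibre type 18 of 18 were marked, with a median signal of 48.1 and a median domain of 6719 bp, against 2400 bp over all marked genes. The highest values were those of Eya3 (62.6), a transcriptional cofactor, and of the MEF2 family genes Mef2a (59.9) and Mef2d (57.6). Of those 18 regulators 2 were of low CpG class and the others of the intermediate or high class. Of the intermediate class 93.9% of all genes were marked, and no share was computed for the high class. Domain widths of the regulators were not compared within a CpG class.

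Near-identical copies could move reads between the isoforms. Stretches of at least 100 bp with at least 98% identity to another place in the 3 myosin loci were searched. None lay within 1000 bp of the first TSS of any member. At 90% identity or more, 124 bp lay there in Myh6 and in Myh7b, and none in the other members. Over gene bodies these looser copies ranged from 165 bp in 2310065F04Rik to 5709 bp in Myh7. Under the parts of the replicated peaks inside gene bodies, copies of at least 98% identity made up 286 bp in Myh4, 32 bp in Myh2 and 0 bp in the other marked members. Parts of peaks outside a gene body, as before Myh4 and beyond the 3′ end of 2310065F04Rik, were not counted. Myh3, Myh8, Myh13 and Myh6 had no peaks to examine. Their gene bodies held 168, 490, 325 and 292 bp of such copies. How the authors placed reads with several matches is not given in the sources used here.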

How the data were processed

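H3K4me3 ChIP-seq was represented by 4 deposited narrowPeak lists on mm10 (replicated 41955 peaks, pooled 45270, pool E 42418, pool F 39544). Per the labels, fragments were of 200 to 600 bp. Which aligner and peak caller were used is not given in the sources used here. Each deposited peak carries a signal value from the authors, whose reference level no source states, and a −log10 q-value. The lists hold no read counts, so depth is unknown and no interval was computed.

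Members, lists and rules were chosen with earlier results of these data known. All members are named, with up to 4 genes of the highest signal value and the unmarked genes of each list of related myosin, myosin-handling and regulator genes, and the marked or nearest genes beside the clusters. One result of a related list is not reported here. TSSs came from GENCODE M21, and marking used a window of 1000 bp. Peaks at most 1000 bp apart were joined into domains. Overlap needed 1 bp. CpG classes used windows of 1000 bp: low, observed over expected CpG ratios under 0.48 at every TSS; high, at least 0.75 with at least 55% GC at one TSS; the rest intermediate. Percentiles are shares of marked protein-coding genes at or below a value.

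Promoter windows were RefSeq's, and all 6494 on chromosomes 2, 11 and 14 were identical to the genome at their coordinates. Python 3.11.15, Biopython 1.88 (alignments), BLAST+ 2.17.0 (copies) and matplotlib 3.10.9 were used. The marking rules were tested on simulated peaks. No statistical test was run, since the study has one condition and no value per library.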

Additional observations from a re-analysis of the deposited data

How the results depend on the processing

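The count of marked members was 6 with windows of 1000 and 2500 bp, with a q-value of 0.05 or less, with at least 100 bp of a peak in the window and in the pooled, pool E and pool F lists. It was 5 with a window of 0 bp, with GENCODE basic or protein-coding transcripts and with RefSeq starts, an alternative chosen after seeing the data, each time without Myh7b. It was 5 without Myh7 at a −log10 q-value of at least 5. Left to one pool, the count was 6, and the Myh4 domain measured 10439 to 12034 bp. Without joining it was 9671 bp. The 2310065F04Rik domain was 1786 bp without joining, and with joining up to 3000 bp or in pool F alone it was wider than that of Myh4. The Myh1 domain was 2979 to 3189 bp with one pool, against 4961 bp, and the 2 smaller peaks joined to it in the replicated list were not part of it in either pool. Covered gene body of Myh7 was 755 bp in pool F, against 1233 bp, and the cause was not tested. No paired analysis was possible because the lists hold no value per library and no test was run. Depth is unknown, so an unlisted peak sets no upper limit on the mark.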
